A study of Mus musculus with 6 samples.

Results

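The 10 genes described here encode transcription factors that set the effector, memory and exhausted states of CD8+ T cells (Tcf7, Lef1, Tox, Tbx21, Eomes, Id2, Id3, Prdm1, Bcl6 and Foxo1). They were chosen by gene symbol from a table of 24589 genes, and all 10 were present. Of these, 9 passed the filter on low values (at least 1 TPM in 3 or more libraries, passed by 10866 genes) and were tested. Prdm1 did not pass, and it has no call in the comparison across genes.

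Transcripts were measured by bulk RNA-seq in primary mouse CD8+ T cells of WT genotype. All cells were activated with anti-CD3/28 antibodies, which stimulate the T cell receptor complex and the co-stimulatory receptor CD28, and then received either DMSO, the solvent control, or 20 µM TVA for 24 h. TVA is trans-vaccenic acid, a trans fatty acid of ruminant milk and meat, and the comparison addressed how it changes gene expression in these cells. There were 3 libraries in each group. Per the study's methods the cells came from spleen and lymph nodes of C57BL/6 mice and were isolated with magnetic beads as total CD8+ T cells, so they could include cells that were already memory cells in the animal. The sources used here do not say whether the 3 libraries of a group came from separate mice or cultures. If they did not, the p-values measure only the spread between these libraries, which may be technical.

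These factors form opposing pairs. TCF-1 (from Tcf7), LEF-1 and FOXO1 maintain naive and memory cells, with ID3 and BCL6 on the same side. T-bet (from Tbx21), ID2 and BLIMP-1 (from Prdm1) drive the effector state, EOMES is shared by effector and memory cells and is also high in exhausted cells, and TOX establishes the exhausted state. ID2 and ID3 bind no DNA themselves. They pair with E proteins, which are activating transcription factors, and keep them off DNA.

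Id3 fell and Eomes rose with TVA, and the other 7 tested genes did not pass the test. Id3 dropped by 46.1%, from 156.4 ± 18.6 to 84.3 ± 1.68 TPM (SD, n = 3), and Eomes rose 1.48-fold, from 21.9 ± 1.52 to 32.5 ± 0.417 TPM (SD, n = 3). TPM is a level corrected for transcript length and for the total of the library, and changes are given as TVA minus DMSO on the log2(TPM + 1) scale, which understates the change of low genes. A gene was called where its adjusted p in limma (a linear model fitted across all tested genes, with Benjamini-Hochberg adjustment over all of them) was under 0.05. With this rule 8.51% of all tested genes were called, 5.28% as higher and 3.23% as lower, against 2 of the 9 members, 1 in each direction. The split of all calls depended on the scaling. It was 574 higher and 351 lower as fitted, but 270 higher and 492 lower after median-of-ratios scaling, 357 and 418 with quantile normalization, and 573 and 537 after a correction for GC content. The direction and call of Id3 and Eomes held under each of these.

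**Figure D1:**
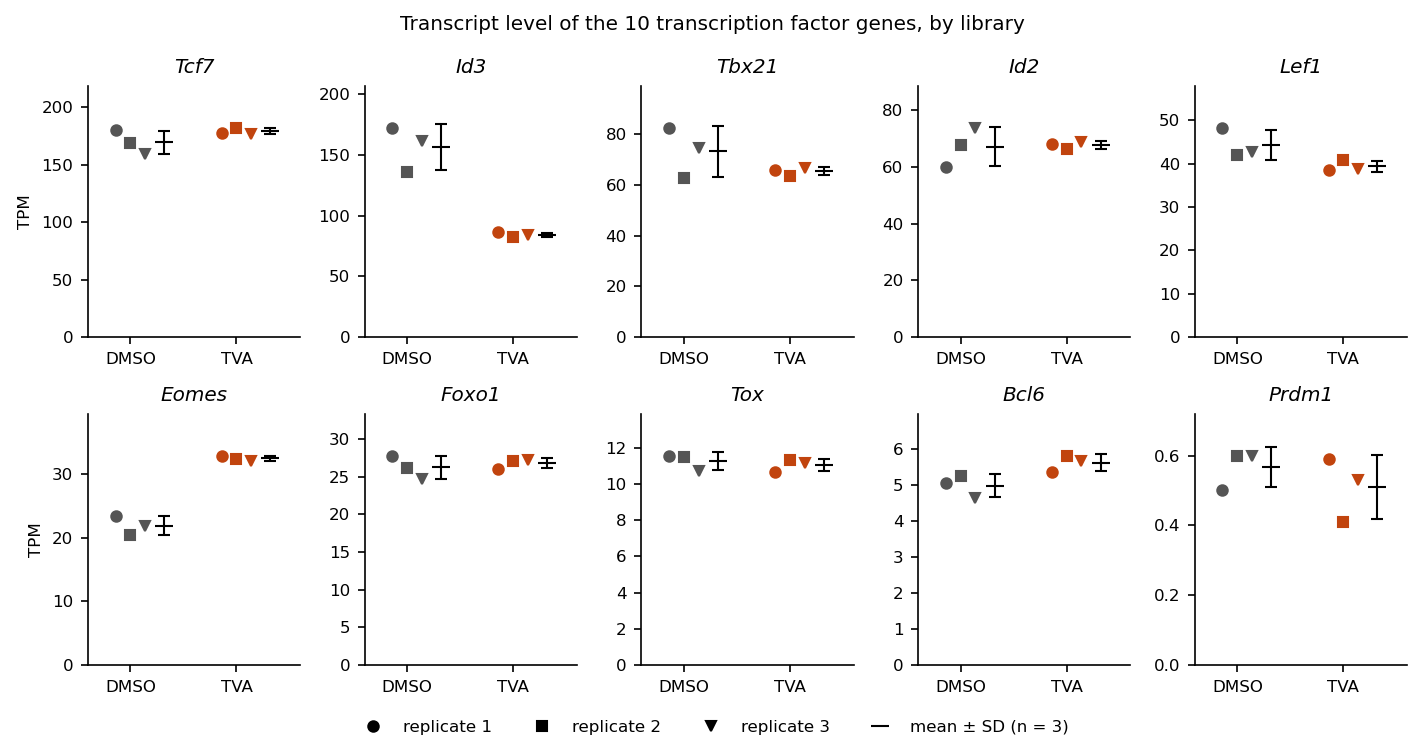
TPM (vertical axes, each starting at 0 and with its own scale) of the 10 transcription factor genes in the 3 DMSO (grey) and 3 TVA (orange) libraries, with a symbol per replicate and the mean ± SD of each group beside its points. The Id3 points lie between 82.8 and 86.1 TPM under TVA, below each DMSO point, and the Eomes points lie between 32.1 and 32.9 TPM, above each DMSO point.

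In the order of their mean levels with DMSO, the genes ran Tcf7, Id3, Tbx21, Id2, Lef1, Foxo1, Eomes, Tox, Bcl6 and Prdm1. With TVA the order of Tbx21 and Id2 and that of Foxo1 and Eomes were exchanged. The ranges of neighbours in this order did not overlap in either group, except for 2 pairs. Tcf7 and Id3 overlapped with DMSO (159.1 to 179.7 against 135.9 to 172.2 TPM) and no longer did so with TVA, where Tcf7 was at 177.0 to 181.9 TPM. Tbx21 and Id2 overlapped in both groups. Foxo1 was above Eomes in all DMSO libraries and below it in all TVA libraries. Among the genes tested, the mean level of Tcf7 stood at percentile 92.6, that of Id3 at 88.9, that of Eomes at 56.8 and that of Bcl6 at 18.6.

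The DMSO libraries were more variable than the TVA libraries for these genes. The highest over the lowest value within a group was larger with DMSO for 9 of the 10 genes, the exception being Prdm1. This was not particular to these genes. Over all tested genes, libraries correlated at 0.9929 to 0.9958 within DMSO and at 0.9974 to 0.9986 within TVA. DMSO replicate 2 stood apart from the other DMSO libraries over all genes. On the first principal component, which held 59.1% of the variance, it lay at 1.23, whereas the other DMSO libraries lay at -18.2 and -12.8 and the TVA libraries at 8.80 to 10.8. Without this library 20.6% of all tested genes were called, and 3 of the 9 tested members. The GC content of the transcripts moved with the comparison too, with a Spearman correlation of -0.40 between GC content and log2 change across the tested genes, which are not independent replicates. In bulk RNA, a change in the number of cells that express a gene and a change in the RNA per cell cannot be told apart.

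The labelled cell type was checked against markers. The 5 CD8 T cell markers (Cd8a, Cd8b1, Cd3d, Cd3e and Cd3g) summed to 1516 to 1638 TPM under DMSO and 1756 to 1787 TPM under TVA. Of these, 4 were higher in every TVA library than in every DMSO library, and Cd3g was called (1.22-fold, limma adjusted p 0.00627). Of 6 myeloid markers, which summed to 49.6 to 55.6 TPM under DMSO and 59.8 to 67.1 TPM under TVA, 5 were higher in every TVA library than in every DMSO library, and Lyz2 was called. Among these 5, Adgre1 did not pass the filter on low values and was not tested. Of all tested genes, 38.6% had groups that did not overlap, in either direction. The 4 CD4 T cell markers summed to 15.1 to 16.2 TPM and 12.2 to 14.2 TPM, with Cd40lg called lower. The 6 B cell markers summed to 11.3 to 14.9 and 10.7 to 11.1 TPM, and the 4 NK cell markers to 2.35 to 3.05 and 2.70 to 3.43 TPM. No marker was at 0 in all libraries, but 4 of the B cell, 3 of the NK cell, 1 of the myeloid and 1 of the CD4 markers stayed under 1 TPM throughout. The part of these other cell types in the changes below was not tested.

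Of the 10 members, Id3 had the largest change and Id2 one of the smallest. Id3 (chr4:136143497-136145755, plus strand, GRCm38) had 172.2, 135.9 and 161.1 TPM for DMSO replicates 1, 2 and 3, and 86.1, 82.8 and 84.1 TPM in the TVA libraries. Every TVA value lay below every DMSO value, and the lowest DMSO value was that of DMSO replicate 2. The log2 change was -0.88 (SE 0.080, 95% interval -1.06 to -0.69, limma adjusted p 0.00239), the 50th largest fall of the 10866 genes tested. Leaving out DMSO replicate 2 gave -0.97 and the GC correction gave -0.84, and it stayed past the threshold in all 15 alternatives (adjusted p 3.07e-05 to 0.0249). In all, 60 tested genes, Id3 included, had a change at least as large in either direction.

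Id2 (chr12:25093799-25097140, minus strand), the ID family member of effector cells, had 60.0, 67.7 and 73.8 TPM under DMSO and 68.2, 66.3 and 68.7 TPM under TVA. The TVA values lay inside the DMSO range. Its log2 change was 0.02 with a 95% interval of -0.15 to 0.18 (limma adjusted p 0.885), and its sign was negative after median-of-ratios scaling, after the GC correction and without DMSO replicate 1. The ratio of Id3 to Id2 within a library does not depend on how that library is scaled. In TPM it was 2.87, 2.01 and 2.18 with DMSO and 1.26, 1.25 and 1.22 with TVA, without overlap. The log2 ratio of TPM + 1 differed by -0.89 between the groups (two-sided exact permutation test, p = 0.1, the smallest that 3 against 3 libraries can give, and 0.167 after adjustment over the 5 pairs tested).

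Of the other ID genes, Id1 had 4.47, 2.12 and 3.42 TPM under DMSO and 0.98, 1.27 and 1.51 TPM under TVA. The groups did not overlap, and the log2 change was -0.91 (SE 0.195, limma adjusted p 0.0346). Id1 is named because it was the single call in its list, after its values were seen. The call was lost under 6 of 14 alternatives (adjusted p 0.00195 to 0.137 over all of them), among them the omission of DMSO replicate 3 or of any TVA library (0.0959 to 0.137). Id4 was listed at 0 in every library. The E proteins that the ID proteins bind did not pass the test. Tcf3, which encodes E2A, had a log2 change of -0.28 (limma adjusted p 0.105), Tcf12, which encodes HEB, one of 0.11 (0.0944) and Tcf4, which encodes E2-2, one of -0.06 (0.598).

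The T-box factors differed in their change. Eomes (chr9:118478212-118486132, plus strand) had 23.5, 20.4 and 21.8 TPM under DMSO and 32.9, 32.4 and 32.1 TPM under TVA. The lowest TVA value was well above the highest DMSO value. Its log2 change was 0.55 (SE 0.054, 95% interval 0.42 to 0.68, limma adjusted p 0.00312), the 31st largest rise of the genes tested. Leaving out DMSO replicate 2 gave 0.50 and the GC correction gave 0.62, and it stayed past the threshold in all 15 alternatives (adjusted p 0.000253 to 0.0319). The changes of 205 tested genes, Eomes included, were at least as large in either direction. EOMES is also a factor of NK cells. Of the 4 NK cell markers, Klre1 had 1.55 to 2.28 TPM under DMSO and 2.01 to 2.94 TPM under TVA, and the other 3, all under 1 TPM, had lower means with TVA (Ncr1 0.31 and 0.16, Klrb1c 0.32 and 0.17, and Klra8 0.23 and 0.13 TPM under DMSO and TVA). Klre1 was tested and not called (limma adjusted p 0.204). The other 3 did not pass the filter on low values and were not tested.

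Tbx21 (chr11:97098071-97115331, minus strand) had 82.6, 62.7 and 74.5 TPM under DMSO and 66.0, 63.6 and 66.8 TPM under TVA. DMSO replicate 2 was below all TVA libraries, and DMSO replicates 1 and 3 were above them. The log2 change was -0.15 (95% interval -0.36 to 0.06, limma adjusted p 0.281). This is the member whose call turned on 1 library, since without DMSO replicate 2 the change was -0.26 and passed the test (limma adjusted p 0.0178). Its transcripts had the highest GC content of the 10 genes, 59.3%, and after the GC correction the change was -0.04 (limma adjusted p 0.684). In TPM the ratio of Eomes to Tbx21 was 0.284, 0.326 and 0.293 with DMSO and 0.498, 0.510 and 0.480 with TVA. The log2 ratio of TPM + 1 rose by 0.70 in the mean without overlap (two-sided exact permutation test, p = 0.1, adjusted 0.167), and by 0.66 after the GC correction.

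**Figure D2:**
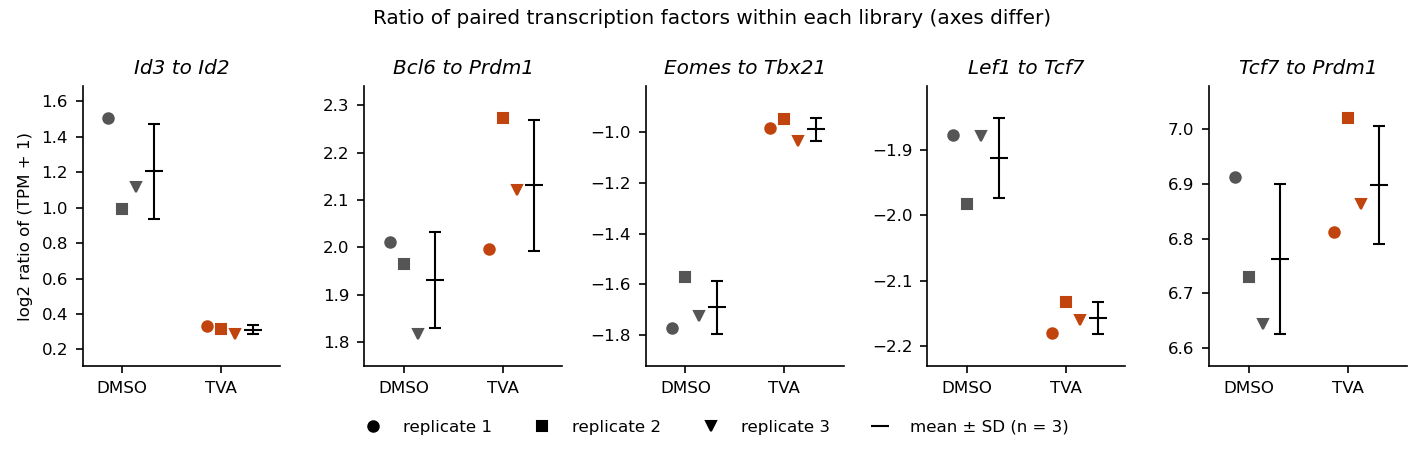
Log2 ratio of TPM + 1 (vertical axes, which differ between panels and do not start at 0) for 5 pairs of transcription factors in the 3 DMSO (grey) and 3 TVA (orange) libraries, with the mean ± SD beside the points. The groups do not overlap for Id3 to Id2, Eomes to Tbx21 and Lef1 to Tcf7, and they overlap for Bcl6 to Prdm1 and Tcf7 to Prdm1.

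The sequences before the transcription starts of the T-box pair are shown because these related genes differed in their response. Each is the stretch of 250 bases before a RefSeq start (GRCm38.p6), for Eomes chr9:118477939-118478188 on the plus strand and for Tbx21 chr11:97115332-97115581 on the minus strand. Neither held an exact match to the motifs searched, so no letters are in capitals. Variant forms were not searched, so a TATA-like stretch such as tatataag near the end of the Eomes sequence is not marked.
Eomes: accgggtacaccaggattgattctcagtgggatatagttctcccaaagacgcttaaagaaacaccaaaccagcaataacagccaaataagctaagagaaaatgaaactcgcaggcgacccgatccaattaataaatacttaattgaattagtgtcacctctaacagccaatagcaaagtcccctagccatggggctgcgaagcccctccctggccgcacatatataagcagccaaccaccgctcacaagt
Tbx21: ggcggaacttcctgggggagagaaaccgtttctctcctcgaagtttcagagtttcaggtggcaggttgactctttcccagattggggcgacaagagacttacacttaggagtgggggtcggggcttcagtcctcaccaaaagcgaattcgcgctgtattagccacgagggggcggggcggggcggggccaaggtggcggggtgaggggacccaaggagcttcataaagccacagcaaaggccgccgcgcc
The GC content of this stretch was 46.4% for Eomes and 60.8% for Tbx21.

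For Id3 a stretch of 29 bases is shown (chr4:136143640-136143668, plus strand), which holds a cAMP response element (CRE) half-site, a short form of the site bound by CREB, the cAMP-responsive factor that the study examined. The half-site is in capitals and begins 170 bases before the RefSeq start, inside the 5′ untranslated region of a longer GENCODE transcript.
Id3: cgctgtcctcggCGTCAgaccagcctaag
Motifs were searched on both strands in windows of 250 bases before to 50 after each RefSeq start, and 9 members had 14 such windows. The CRE half-site (TGACG) was in 3 member windows (Bcl6, Id3 and Prdm1) and in 20.8% of all 32851 windows. It is contained in the full CRE (TGACGTCA), which was in 0 member windows and 1.79% of all windows. A TCF/LEF motif (CTTTGA) was in 2 member windows (Bcl6 and Lef1) and 16.0% of all, a FOXO motif (TGTTTAC) in 2 (Prdm1 and Tcf7) and 3.65%, a T-box motif (GGTGTGA) in 0 and 3.98%, and a TATA box (TATAAA) in 2 (Lef1 and Tcf7) and 13.6%. Both TATA box matches were to the reverse complement (TTTATA), beginning at -231 from the start for Lef1 and at -8 for Tcf7. Variant forms of a motif were not searched. These are matches of exact letters, not measured binding.

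Tcf7, Lef1 and Foxo1, which maintain naive and memory cells, were not called. Tcf7 (chr11:52252371-52283014, minus strand), the gene with the highest level of the 10, had 179.7, 168.9 and 159.1 TPM under DMSO and 177.8, 181.9 and 177.0 TPM under TVA, so the groups overlapped. Its log2 change was 0.08 (95% interval -0.03 to 0.19, limma adjusted p 0.282). Lef1 (chr3:131110471-131224356, plus strand), which encodes the related HMG-box factor, had 48.2, 42.0 and 42.6 TPM under DMSO and 38.5, 40.7 and 38.8 TPM under TVA. Each TVA value was below each DMSO value, but the log2 change of -0.16 (95% interval -0.30 to -0.03) had an unadjusted p of 0.0259 and did not pass after adjustment (limma adjusted p 0.112). It passed by a small margin after the GC correction (-0.18, limma adjusted p 0.0486) but not when that correction was combined with the replicate number as a block (0.0881). In TPM the ratio of Lef1 to Tcf7 was 0.268, 0.249 and 0.267 with DMSO and 0.216, 0.224 and 0.219 with TVA. The log2 ratio of TPM + 1 differed by -0.24 (two-sided exact permutation test, p = 0.1, adjusted 0.167).

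Foxo1 (chr3:52268336-52353221, plus strand), the forkhead factor that sustains expression of naive cell genes, had 27.8, 26.2 and 24.7 TPM under DMSO and 26.0, 27.1 and 27.2 TPM under TVA. The groups overlapped, with a log2 change of 0.03 (95% interval -0.09 to 0.15, limma adjusted p 0.721) whose sign was negative after median-of-ratios scaling, after the GC correction and without DMSO replicate 3. Tox (chr4:6686353-6991557, minus strand) had 11.6, 11.5 and 10.7 TPM under DMSO and 10.7, 11.3 and 11.1 TPM under TVA. Its log2 change was -0.03 (95% interval -0.14 to 0.09, limma adjusted p 0.752). For both genes the 95% interval ended within 0.15 of 0 on the log2 scale.

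BCL6 and BLIMP-1 are known to repress each other's genes. Bcl6 (chr16:23965052-23988852, minus strand) had 5.05, 5.25 and 4.64 TPM under DMSO and 5.35, 5.81 and 5.66 TPM under TVA. The groups did not overlap, by a narrow gap, and the log2 change was 0.14 (95% interval -0.0016 to 0.29, limma adjusted p 0.161). Prdm1 (chr10:44437177-44528501, minus strand) had 0.50, 0.60 and 0.60 TPM under DMSO and 0.59, 0.41 and 0.53 TPM under TVA, the lowest level of the 10 genes in every library. The log2 ratio of Bcl6 to Prdm1 differed by 0.20 (two-sided exact permutation test, p = 0.2, adjusted 0.25) and that of Tcf7 to Prdm1 by 0.14 (p = 0.3, adjusted 0.3), both with overlapping groups. At the low level of Prdm1 these ratios depended on the pseudocount, and with 0.1 in place of 1 the differences were 0.30 and 0.22. Without TVA replicate 2 they were 0.13 and 0.075, and without DMSO replicate 3 the difference for Tcf7 to Prdm1 was 0.077, whereas without DMSO replicate 1 it was 0.21. In all, the groups did not overlap for 4 of the 9 tested members, 2 of them not called, where 38.6% of all tested genes had groups that did not overlap.

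**Figure D3:**
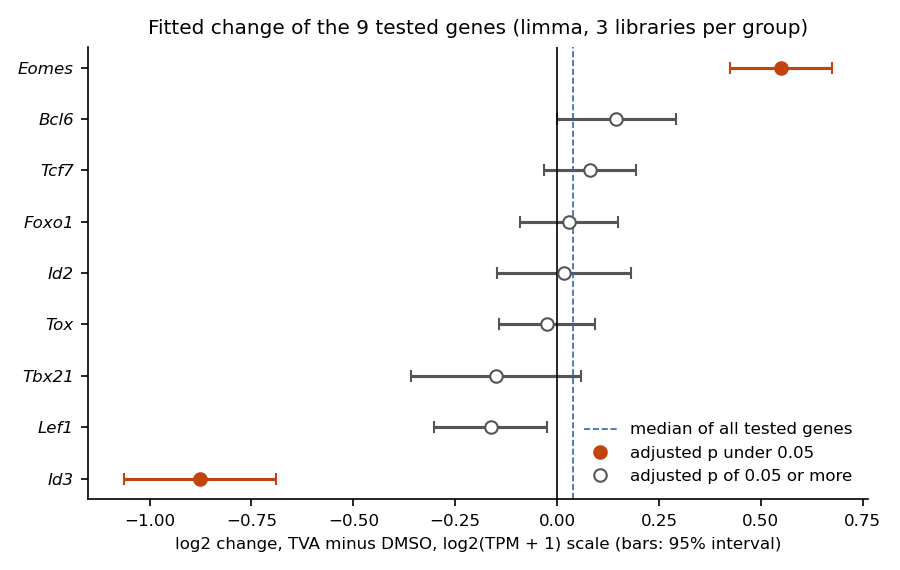
Log2 change between TVA and DMSO with its 95% interval (horizontal axis, log2(TPM + 1) scale) for the 9 tested genes, with filled orange points for an adjusted p under 0.05 and a dashed line at 0.04, the median of all tested genes. The interval of Id3 lies wholly below and that of Eomes wholly above the intervals of the other 7 genes.

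Annotated genes overlap 6 of the 10 members (Bcl6, Eomes, Foxo1, Lef1, Tcf7 and Tox), in each case including 1 on the opposite strand. None of these has a row in the table, and the sources used here do not state whether strand was used in the counting, so reads of such a gene cannot be told apart from those of Eomes or the other members.

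Other genes of these networks were taken from 4 lists. The lists were chosen with earlier results of these data known, so the shares called in them only describe the lists. In the list of family members and binding partners (TCF, TOX, ID, E protein and FOXO relatives and corepressors), 13 of 19 genes were tested, 0 rose and 1 fell (Id1). The median log2 change of the list was -0.05, against 0.04 for all tested genes. FOXO relatives were not called, with log2 changes of -0.34 for Foxo3 (limma adjusted p 0.0988) and 0.08 for Foxo4 (0.446). In the list of other CD8 T cell state transcription factors, 16 of 17 genes were in the table and tested, 1 rose and 0 fell, with a median of 0.06. The gene that rose was Myb, which encodes a factor that preserves stem-like memory cells, with 20.6, 19.3 and 20.3 TPM under DMSO and 23.5, 24.4 and 23.3 TPM under TVA (log2 change 0.23, SE 0.045, limma adjusted p 0.0252). Myb was no longer called without DMSO replicate 3 (limma adjusted p 0.0600) or any TVA library (0.0904 to 0.137), and 6 of 15 alternatives ended the call in all. Shares called in these lists, 7.69% and 6.25% of their tested genes, were near the 8.51% of all tested genes.

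Among 13 naive and memory T cell genes, all tested, 2 rose and 2 fell (30.8%, against 8.51% of all tested genes), with a median log2 change of -0.10. The 4 calls became 1 when any TVA library was left out. Those that rose act in the homing of naive and central memory cells to lymph nodes and their exit from them. Ccr7, which encodes the chemokine receptor that guides entry, rose by 0.24 on the log2 scale, from 569.3 ± 32.2 to 673.1 ± 2.85 TPM (SD, n = 3, limma adjusted p 0.0259). S1pr1, the sphingosine phosphate receptor gene that guides exit from lymph nodes, rose by 0.37, from 10.6 ± 0.722 to 13.9 ± 0.429 TPM (SD, n = 3, limma adjusted p 0.0162). Both were higher in all TVA than in all DMSO libraries, but neither was called when any TVA library was left out (limma adjusted p 0.0970 to 0.133 for Ccr7 and 0.0729 to 0.0857 for S1pr1). In all, 5 of 15 alternatives ended the call of each, for Ccr7 including the test of all genes above 0 TPM (0.0540). The genes that fell were Slamf6, a surface receptor gene used to mark stem-like exhausted cells, and Igfbp4, which encodes a growth factor binding protein. Slamf6 had 26.1, 27.8 and 26.9 TPM under DMSO and 19.8, 20.6 and 20.1 TPM under TVA (log2 change -0.40, SE 0.043, limma adjusted p 0.00415), and it stayed past the threshold in all 15 alternatives. Igfbp4 had a log2 change of -0.29 (limma adjusted p 0.0460), which was lost under 9 of 14 alternatives, including the omission of any library other than DMSO replicate 2 (0.0672 to 0.178). Il7r, Cd27 and Cxcr5 had log2 changes of 0.03, 0.10 and -0.26 and were not called (limma adjusted p 0.727, 0.216 and 0.0607).

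Among 14 effector CD8 T cell genes 10 were tested, of which 2 rose and 3 fell (50.0%, against 8.51% of all tested genes), with a median log2 change of 0.02. The 5 calls became 2 without DMSO replicate 3 or TVA replicate 3, and 3 without TVA replicate 1 or 2. Prf1, which encodes the pore-forming protein perforin, had 59.1, 49.7 and 47.8 TPM under DMSO and 68.2, 66.8 and 64.2 TPM under TVA (log2 change 0.35, SE 0.077, limma adjusted p 0.0376). Il12rb2, which encodes an IL-12 receptor chain, rose by 0.28, from 39.9 ± 1.33 to 48.6 ± 2.35 TPM (SD, n = 3, limma adjusted p 0.0205). Cxcr3, which encodes a chemokine receptor of effector cells and is a known T-bet target, had 18.3, 17.8 and 16.2 TPM under DMSO and 12.6, 14.4 and 11.5 TPM under TVA (log2 change -0.42, SE 0.083, limma adjusted p 0.0289). Leaving out 1 library ended these calls for Prf1 (DMSO replicate 3 or any TVA library, limma adjusted p 0.0921 to 0.154), Il12rb2 (DMSO replicate 3 or TVA replicates 2 or 3, 0.0594 to 0.111) and Cxcr3 (DMSO replicate 3 or TVA replicates 1 or 3, 0.0565 to 0.111). Testing all genes above 0 TPM also ended those of Prf1 (0.0751) and Cxcr3 (0.0664), and in all 6, 4 and 4 of 15 alternatives ended the calls of Prf1, Il12rb2 and Cxcr3. The other genes that fell were at low levels and are named after their values were seen. Gzma, which encodes granzyme A, went from 4.62 to 5.03 TPM under DMSO to 1.55 to 1.92 TPM under TVA (log2 change -1.09, limma adjusted p 0.000644). Havcr2, which encodes the inhibitory receptor TIM-3, went from 4.95 to 5.41 TPM to 2.37 to 3.10 TPM (log2 change -0.76, limma adjusted p 0.00456). Both stayed past the threshold in all 14 alternatives that gave a value. Gzmb and Ifng, the abundant effector genes of the list, had log2 changes of 0.02 and 0.06 and were not called (limma adjusted p 0.806 and 0.330).

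**Figure D4:**
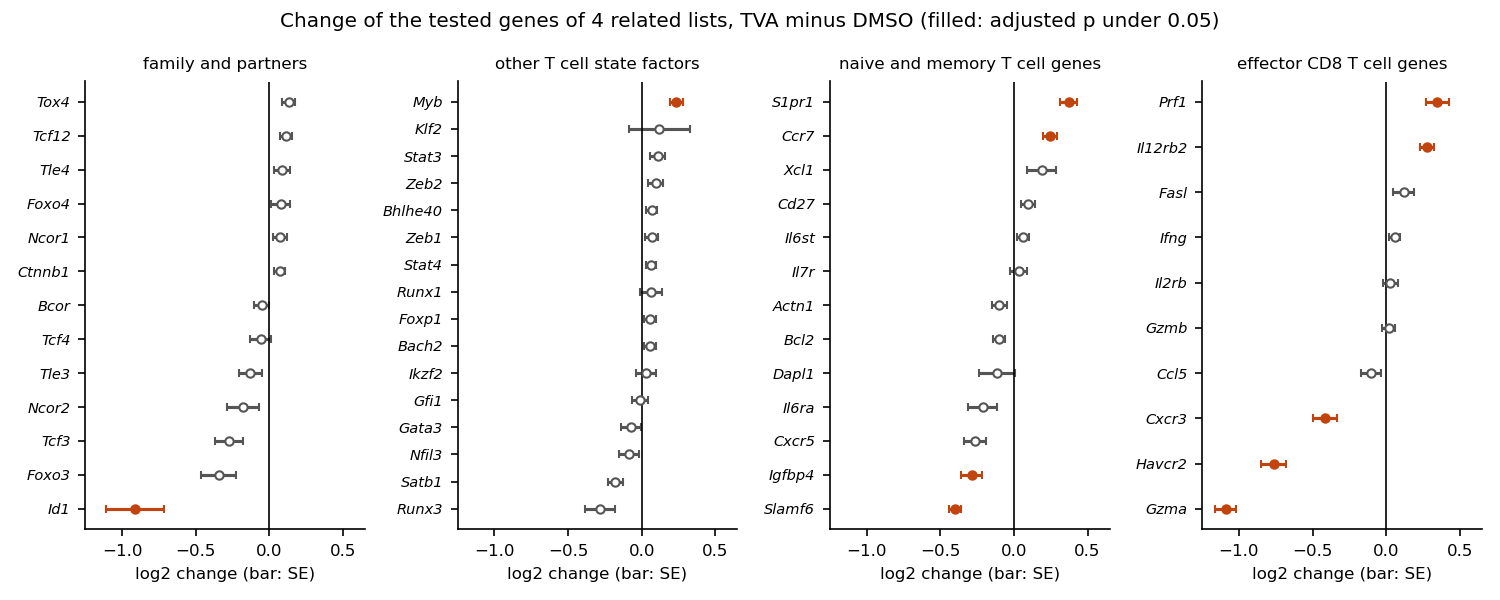
Log2 change between TVA and DMSO (horizontal axes, log2(TPM + 1) scale) with its SE for the tested genes of the 4 related lists, ordered by change, with filled orange points for an adjusted p under 0.05. Called genes appear on both sides of 0 in the naive and memory list (2 higher, 2 lower) and in the effector list (2 higher, 3 lower).

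The members were also compared across the ways of processing the table. Of 135 fitted values of the 9 tested members and Prdm1 under the alternatives, 125 kept their sign and their side of the threshold. Id3 ranged from -0.97 to -0.80 and Eomes from 0.50 to 0.62 in log2 change, whereas Tbx21 ranged from -0.26 to -0.04.

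**Figure D5:**
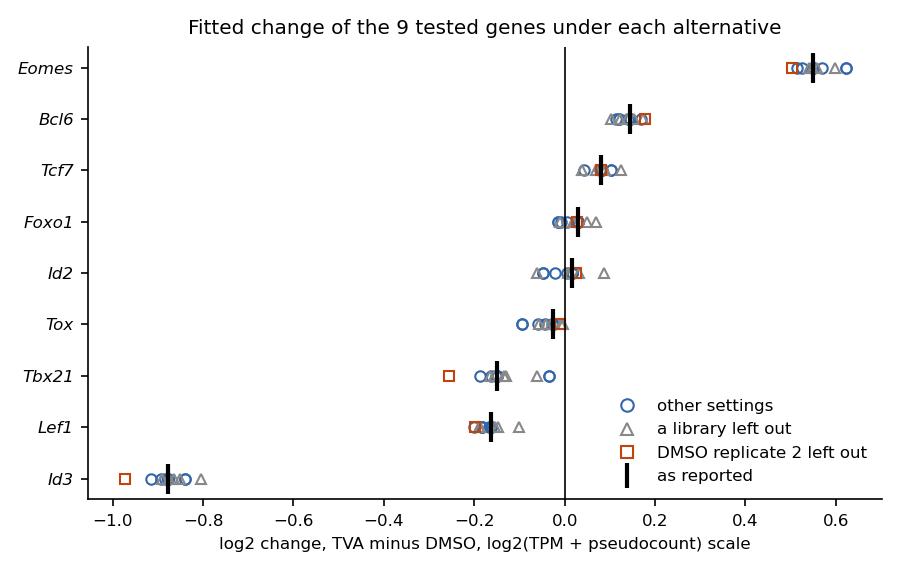
Log2 change between TVA and DMSO (horizontal axis) of the 9 tested genes as reported (black bar), with each library left out (grey triangles, and an orange square for DMSO replicate 2) and under the other settings (blue circles). Id3 and Eomes stay far from 0 throughout, Tbx21 moves away from 0 when DMSO replicate 2 is left out and towards 0 after the GC correction, and the points of Id2 and Foxo1 fall on both sides of 0.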

How the data were processed

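Bulk RNA-seq libraries of primary mouse CD8+ T cells (3 DMSO, 3 TVA) were grouped by the treatment and number in their titles. The authors deposited a table of TPM per gene symbol. Per the submitters' processing notes it was made with STAR, RSEM and mm10, and the versions and annotation are not given in the sources used here. Per the labels a SMARTER mRNA-Seq kit was used. Each library sums to 999999 to 1000001 TPM, so depth is unknown and no counting interval is given.

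The values were tested as log2(TPM + 1), for genes with at least 1 TPM in at least 3 libraries, with limma 3.58.1 in R 4.3.3 (trend of the prior variance with expression, two-sided, Benjamini-Hochberg adjustment, threshold 0.05, no replicate block). Log2 ratios of 5 pairs were compared by two-sided exact permutation tests. Alternatives were a pseudocount of 0.1, all genes above 0 TPM, genes averaging 10 TPM or more, median-of-ratios scaling, quantile normalization, no variance trend, a replicate block, a GC correction (loess, span 0.5, on the GC content of GENCODE vM21 transcripts, matched for 99.4% of tested genes) without and with that block, and the omission of each library. Gene positions are from GENCODE vM21 (GRCm38), and promoter sequences from RefSeq (GRCm38.p6), matched for 9 of 10 members and not for Tox.

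Genes named were the members and, from each list, up to 5 genes with the largest change among those called and averaging 5 TPM or more. Outside this rule, Id1, Gzma and Havcr2 are named below that level. Genes that were not called are named too (Tcf3, Tcf12, Tcf4, Foxo3, Foxo4, Il7r, Cd27, Cxcr5, Gzmb and Ifng). In the naive and memory list 1 gene is not reported here and is left out of its counts. The members and lists were chosen with earlier results of these data known. On simulated data with 10866 genes, 81 of 100 genes changed by 0.5 and 98 of 100 changed by 1 on the log2 scale were recovered, and 5 unchanged genes were called. The simulated noise was independent between genes and had the same SD in both groups. It held neither the wider spread of the DMSO libraries nor the position of DMSO replicate 2, so these rates need not apply to the data. Figures were drawn with matplotlib 3.10.9.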

Additional observations from a re-analysis of the deposited data

How the results depend on the processing

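Of the 10 transcription factors, Id3 and Eomes were called in every setting run, and 2 or 3 were called in each. The third was Lef1 after the GC correction and Tbx21 without DMSO replicate 2. Among the members' log2 changes 2 passed the threshold that way and 8 changed sign, none of them called. These were Id2 after median-of-ratios scaling (-0.021), the GC correction without and with the replicate block (-0.049 for both) and without DMSO replicate 1 (-0.061, in a range up to 0.086 with other libraries left out), and Foxo1 after median-of-ratios scaling (-0.0075), the GC correction without and with the block (-0.016 for both) and without DMSO replicate 3 (-0.011, in a range up to 0.070). The 925 calls over all genes became 494 with all genes above 0 TPM, 608 at a mean of at least 10 TPM (fewer genes tested), 218 with the replicate block and 533 with the GC correction and the block, and ranged from 102 to 2242 with 1 library left out. For the 5 pairs each shift of the log2 ratio was smaller than the larger SD of the 2 groups, but those with Prdm1 moved by over 1.5 times, Bcl6 to Prdm1 from 0.20 to between 0.13 and 0.30 and Tcf7 to Prdm1 from 0.14 to between 0.075 and 0.22.

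The calls in the family and partner list (1) became 0 at a mean of at least 10 TPM and with the replicate block, and 0 to 4 with 1 library left out. The calls among other state factors (1) became 2 after median-of-ratios scaling, quantile normalization and the GC correction, 0 with the replicate block and with both, and 0 to 3 with 1 library left out. The naive and memory calls (4) became 2 with all genes above 0 TPM, 1 with the block and 2 with both, and 1 to 6 with 1 library left out. The effector calls (5) became 3 with all genes above 0 TPM, at a mean of at least 10 TPM and with the block, and 2 to 6 with 1 library left out. The cause was not tested. Among the list genes called, 45 of their values under the alternatives no longer passed and 0 changed sign. The deviations from the group means correlated at 0.157, 0.035 and -0.077 between libraries of the same number. Of 6 libraries, 2 correlated best with their own number. With 3 libraries per group these values do not show a pairing by number, but they cannot exclude one. The replicate block alone changed no call among the 10 members. Lef1, called after the GC correction, was not called with both (limma adjusted p 0.0881). Among the list genes the block ended the calls of Id1, Myb, Ccr7, S1pr1, Igfbp4, Prf1 and Il12rb2 (adjusted p 0.05001 to 0.0692), and with the GC correction those of Myb, S1pr1 and Igfbp4 (0.0537 to 0.0923). Since depth is unknown, the counting error of low genes such as Prdm1 and Id1 cannot be given.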
